A study of Mus musculus with 12 samples.

Results

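The genes described here encode the nuclear subunits of the 5 complexes of oxidative phosphorylation, measured in 6 populations of mouse small intestinal cells. They were taken by symbol: every gene whose annotated symbol begins with Nduf, Uqcr or Atp5, begins with Cox and a digit from 4 to 8, or is Sdha, Sdhb, Sdhc or Sdhd. Of the probe sets assigned to 1 gene only, each gene's brightest by its 12-array mean was taken. This gave 87 genes of the 17097 measured, from 148 probe sets. The rule takes 70 subunits of the 5 complexes: 32 of complex I, 4 of complex II, 7 of complex III, 10 of complex IV (with Ndufa4) and 17 of complex V. It also takes 7 assembly factors of complex I (Ndufaf1 to Ndufaf6 and Ndufaf8), 8 isoforms of complex IV subunits known mainly from other tissues, the supercomplex factor Cox7a2l and the pseudogene Ndufs5-ps. The probe set of Ndufs5-ps may bind transcripts of its near-identical parent gene, so its values are uncertain. Cox7b, Ndufa13, Ndufb6, Ndufs5 and Uqcrh were not analysed here.

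In the inner mitochondrial membrane, complexes I and II pass electrons from NADH and succinate to ubiquinone, complex III passes them on to cytochrome c, and complex IV passes them to oxygen. Complexes I, III and IV pump protons as they do so, and complex V, the ATP synthase, uses the returning protons to make ATP. The subunits named here are encoded in the nucleus, are present in nearly all cells, and meet a smaller set of mitochondrially encoded subunits during assembly.

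Untreated primary cells were isolated by their level of Mex3a, which encodes an RNA-binding protein, and of Lgr5, whose product, a receptor, is a marker of crypt base stem cells. The populations were Mex3a High, Mex3a Low and Mex3a Neg cells of the Lgr5 High gate and the same 3 Mex3a gates of Lgr5 Low, each from 2 biological replicates named MR793 and MR820. RNA came from 2000 cells a sample and was amplified for 22 cycles before hybridisation to Affymetrix arrays on 3 strips. The strain, age and reporter alleles of the mice, and the way in which the levels of Mex3a and Lgr5 were read for the isolation, are not stated in the labels. With 2 arrays a population the number of arrays limits the precision of every value. In bulk samples such as these, fewer cells of a type and less RNA per cell cannot be told apart. Values are log2 expression values, differences are log2 differences, SE is limma's moderated standard error, and called genes are those with an adjusted p (Benjamini-Hochberg over the 17097 genes) under 0.05.

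The gates were checked against their own genes. Lgr5 averaged 2.61 ± 0.23 (SE) higher in the Lgr5 High than in the Lgr5 Low populations (limma, adjusted p = 0.000843). Within Lgr5 Low, Lgr5 was not level between the Mex3a gates. It read 8.05 and 7.61 in Mex3a High, against 6.37 and 7.25 in Mex3a Neg. The difference of 1.02 ± 0.40 (SE) did not pass the test (limma adjusted p = 0.571). Mex3a was dim on every array, at 5.44 to 6.35, and its Mex3a High minus Mex3a Neg difference was 0.29 ± 0.19 within Lgr5 High and 0.12 ± 0.19 within Lgr5 Low (SE; limma adjusted p = 0.505 and 1.0), so its probe set did not pass the test in either gate. Within Lgr5 High it read 6.35 and 5.84 in Mex3a High, against 5.71 and 5.91 in Mex3a Neg, so the sign differed between replicates. Without the MR793 array of Mex3a High, the array described next, that difference was 0.03 ± 0.14 (SE).

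A single array stood apart from the rest. The MR793 array of Mex3a High Lgr5 High correlated with the others at 0.892 to 0.914 over all genes, whereas the other 11 arrays correlated with each other at 0.966 to 0.996. On that array 53 of the 87 genes lay below all of the other 11 arrays and 11 lay above them (Atp5d, Atp5g2, Atp5h, Atp5k, Cox4i2, Cox6a2, Cox8b, Cox8c, Ndufa12, Ndufa4l2 and Ndufs8), while over all genes 29.6% lay below and 45.0% above. Counts of called genes and medians over the oxidative phosphorylation genes that use it are given with and without it. On strips, the Lgr5 High arrays of MR793 were all on strip 1 and its Lgr5 Low arrays all on strip 3. For MR820, the Mex3a High and Mex3a Neg Lgr5 High arrays and the Mex3a High and Mex3a Low Lgr5 Low arrays were on strip 2, the Mex3a Low Lgr5 High array on strip 1 and the Mex3a Neg Lgr5 Low array on strip 3.

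The oxidative phosphorylation genes gave bright signals. Their mean log2 values had a median of 11.13, against 6.53 over all genes, and 67 of the 87 lay at or above the 90th percentile of all genes. Probe sets bind with different strength, so this describes signals and does not rank transcripts. The brightest in complex I were Ndufa5, an accessory subunit (12.40), Ndufv1, the subunit that binds NADH (12.21), and Ndufs7, an iron-sulfur core subunit (12.02). In complex III they were the core protein Uqcrc2 (12.31) and the small subunits Uqcrq (12.16) and Uqcr11 (11.41), in complex IV Cox5b (12.44), Cox7a2 (12.38) and Cox6a1 (12.33), and in complex V Atp5a1, the alpha subunit of the catalytic head (12.51), Atp5h, of the stalk that holds the head (12.28), and Atp5j2, a membrane subunit (12.25). The lowest mean of the 70 subunits was that of Sdhd (8.29), and the tissue isoforms ran down to 4.28 for Cox7b2, a testis isoform.

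Across the 6 populations most of the genes were highest in the same one, and the lowest varied. The Mex3a Neg Lgr5 Low population had the highest mean for 68 of the 87 genes, and for 69 without the array that stands apart. The lowest mean fell in the Mex3a High Lgr5 High population for 57 genes, in Mex3a Low Lgr5 High for 17 and in Mex3a High Lgr5 Low for 9. Without that array these counts became 30, 36 and 19, so which population is lowest rests on it. Set against each gene's mean over the other 11 arrays, the median of the 87 genes in MR793 and MR820 was -0.31 and -0.09 in Mex3a High Lgr5 High, -0.11 and -0.08 in Mex3a Low Lgr5 High, 0.03 and -0.04 in Mex3a Neg Lgr5 High, -0.02 and -0.10 in Mex3a High Lgr5 Low, 0.03 and 0.06 in Mex3a Low Lgr5 Low, and 0.21 and 0.11 in Mex3a Neg Lgr5 Low. Both arrays of Mex3a Neg Lgr5 Low lay above the arrays of every other population, and its MR793 array was the highest of all 12 for 59 genes. Among the other populations, neighbours in this order overlapped or nearly touched. The shares of all genes that were highest or lowest in each population are not given here. The share highest on the MR793 array of Mex3a Neg Lgr5 Low is not given either.

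**Figure D1:**
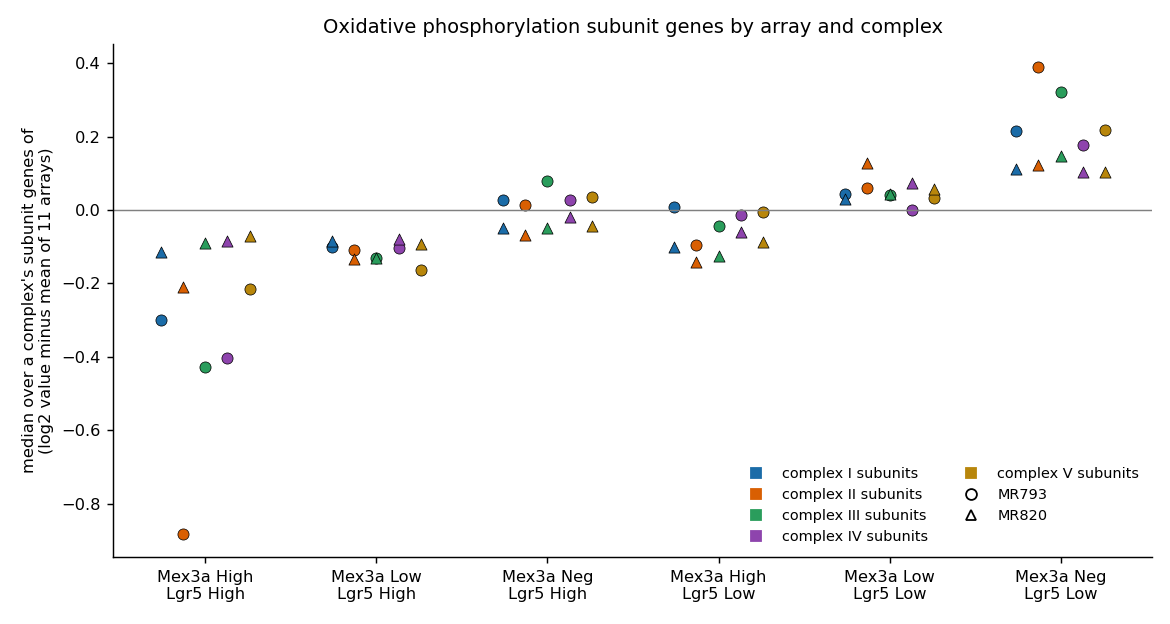
Median over the subunit genes of each complex of the log2 value minus the gene's mean over the 11 arrays other than the MR793 array of Mex3a High Lgr5 High, by population; circles are MR793 and triangles MR820, 1 array each. The Mex3a Neg Lgr5 Low arrays lie highest in complexes I, III, IV and V, with a Mex3a Low Lgr5 Low array (0.13) just above the MR820 one (0.12) in complex II, and the MR793 array of Mex3a High Lgr5 High lies lowest in all 5, down to -0.88 in complex II.

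How far single genes moved across populations differed within a complex. In complex I the assembly factor Ndufaf1 had the widest range of population means (1.36), which rested on a value of 4.98 on the array that stands apart against 7.15 to 7.74 on the other 11. Without that array the widest was Ndufc2, a membrane-arm subunit (0.83), and the narrowest with all arrays was Ndufa3 (0.15). In complex III the widest was Uqcrfs1, the Rieske iron-sulfur protein (1.30), or without the array Uqcrb (0.75), and the narrowest Uqcrq (0.28). In complex V the widest was Atp5pb, of the stalk (0.79), or without the array the small subunit Atp5mpl (0.55), and the narrowest Atp5h (0.084). Among the complex IV genes the muscle isoform Cox7a1 had the widest range (2.23), and the dim Cox7b2 one of 0.15.

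Within the Lgr5 Low gate most of these genes were lower in Mex3a High than in Mex3a Neg cells, in both replicates and in all 5 complexes. The 87 genes had a median difference of -0.22 (-0.22 in MR793, -0.21 in MR820), a median change of -14.4%, and 81 of the 87 were lower in Mex3a High, against a median of -0.01 and 9178 of the 17097 over all genes. The arrays of the 2 populations did not overlap for 67 of the 87 genes lower in Mex3a High and 3 higher, with 24.2% and 21.1% of all genes. With all 12 arrays limma called 0 of the 87 (0.0117% of all genes were called lower), and 9 were lower at an unadjusted p under 0.05 (1.49% of all genes). The array that stands apart is not among these populations but adds to each gene's residual spread, which all populations share. Without it, at the same differences, 6 of the 87 fell (1.23% of all genes called lower). With the replicate block as well, a fit chosen after the data were seen, 35 fell (5.26% of all genes called lower): 13 subunits and 4 assembly factors of complex I, 3 genes of complex II, 6 of complex III, 3 of complex IV and 6 of complex V. The MR793 pair lay within strip 3 and the MR820 pair on strips 2 and 3, and with the strip as a block the median was -0.19.

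**Figure D2:**
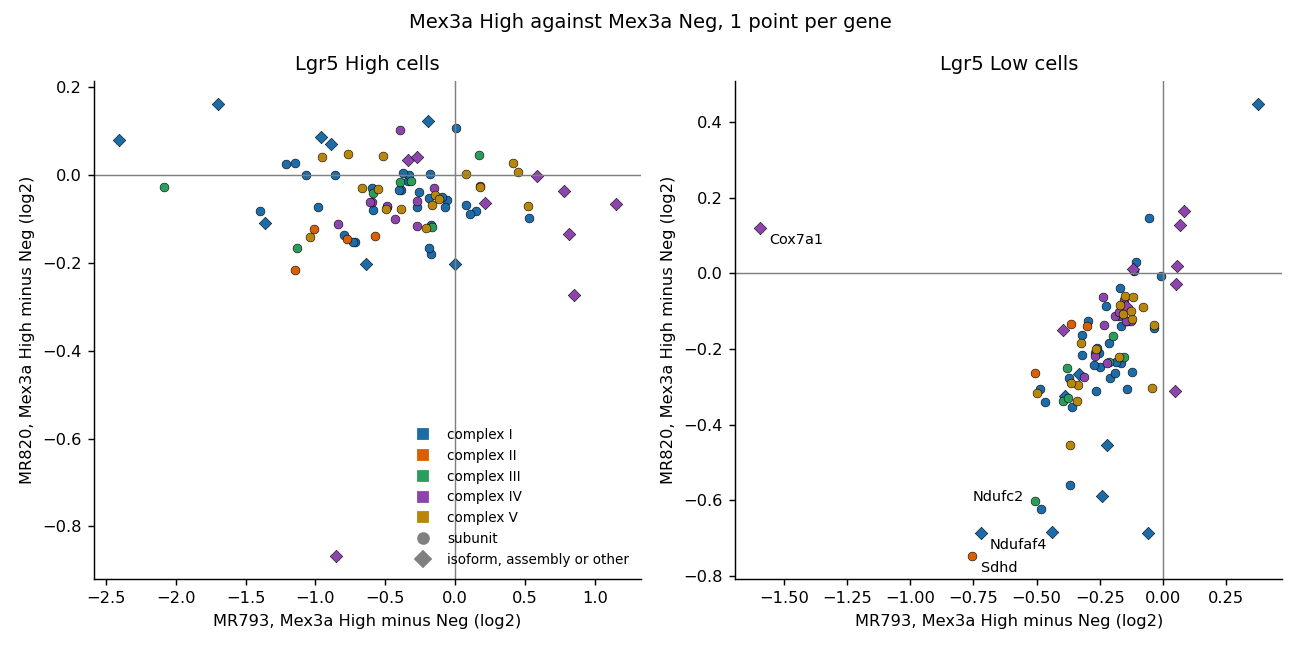
Mex3a High minus Mex3a Neg log2 difference of each of the 87 genes in MR793 (x axis) and MR820 (y axis), within Lgr5 High (left) and Lgr5 Low (right), coloured by complex, with diamonds for isoforms, assembly factors and other genes. Within Lgr5 Low most genes lie below 0 in both replicates (81 in MR793 and 78 in MR820), with medians of -0.22 and -0.21; within Lgr5 High the MR793 differences spread further, with medians of -0.37 and -0.06.

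Of the 6 genes that fell without that array, Sdhd of complex II had the largest difference. Sdhd, a membrane anchor that helps bind ubiquinone, read 8.17 and 8.00 in Mex3a High Lgr5 Low cells, against 8.93 and 8.75 in Mex3a Neg Lgr5 Low cells. The values did not overlap, and the difference of -0.75 ± 0.19 was -0.76 in MR793 and -0.75 in MR820. Its limma adjusted p was 0.120 with 12 arrays, 0.00706 without the array that stands apart and 0.00166 with the replicate block as well, and 0.00166 to 0.772 over all alternatives. The _x_at suffix of its probe set marks probes that also match other sequences, so part of its signal may come from elsewhere. The other genes of the complex were also lower in Mex3a High on both arrays, without passing the test with 12 arrays. Sdha, the flavoprotein that oxidises succinate, read 11.73 and 11.73 against 12.03 and 11.87 in Mex3a Neg. Sdhb, its iron-sulfur partner, read 11.49 and 11.52 against 11.86 and 11.66, and Sdhc, the other anchor, read 9.59 and 9.50 against 10.10 and 9.76. None of these arrays overlapped between the populations, and the median of the 4 genes was -0.32.

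In complex III all 7 genes were lower in Mex3a High Lgr5 Low cells, with a median of -0.32. Uqcrb, a subunit near the ubiquinone site, read 10.05 and 9.90 in Mex3a High, against 10.56 and 10.50 in Mex3a Neg, a difference of -0.55 that fell without the array that stands apart (SE 0.10; limma adjusted p = 0.0113). Uqcrc1, a core protein facing the matrix, read 11.21 and 11.20, against 11.59 and 11.45, and fell likewise (-0.32 ± 0.07, limma adjusted p = 0.0431 without that array). For both genes the gap between the populations was wider than the gap between replicates. The small subunit Uqcr10 read 10.83 and 10.68, against 11.23 and 11.02 (-0.37 ± 0.15, limma adjusted p = 0.633 with 12 arrays).

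In complex I 31 of the 32 subunits were lower in Mex3a High Lgr5 Low cells, with a median of -0.23, and the exception, Ndufv3, named after its values were seen, differed by 0.05. Ndufc2 read 10.37 and 9.99 in Mex3a High, against 10.86 and 10.62 in Mex3a Neg, a difference of -0.55 ± 0.18 (limma adjusted p = 0.308 with 12 arrays, 0.0593 without the array that stands apart). Ndufb4, another membrane-arm subunit, read 10.16 and 9.78, against 10.53 and 10.34 (-0.46 ± 0.17, adjusted p = 0.516). For both genes the MR820 array of Mex3a High was the lower of its pair and the populations did not overlap. Ndufc1 read 11.60 and 11.50, against 11.86 and 11.81 (-0.29 ± 0.06, adjusted p = 0.0339 without that array), and Ndufb5 read 10.32 and 10.33, against 10.78 and 10.67 (-0.40 ± 0.10, adjusted p = 0.0447 without that array). Ndufa5 differed by -0.23 ± 0.10 (adjusted p = 0.685 with 12 arrays). Of the 7 assembly factors 6 were lower, with a median of -0.37. Ndufaf4 read 8.31 and 8.46, against 9.03 and 9.15, and fell without the array that stands apart (-0.70 ± 0.13, limma adjusted p = 0.0135). Its 2 probe sets gave -0.70 and -0.72. The seventh, Ndufaf3, which acts with Ndufaf4, went the other way at 7.15 and 7.32, against 6.78 and 6.87, without passing the test, and is named after its values were seen.

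Complexes IV and V had smaller medians. All 10 subunits of complex IV were lower in Mex3a High Lgr5 Low cells (median -0.15), and all 17 of complex V (median -0.17), and the complex V gene with the smallest p was Atp5g1, which encodes the c subunit of the rotor. It read 11.15 and 10.82 in Mex3a High, against 11.52 and 11.28 in Mex3a Neg, with a difference of -0.41 ± 0.15 (limma adjusted p = 0.515 with 12 arrays). Its Mex3a High arrays lay nearly as far from each other as the populations did, although the populations did not overlap. The 8 tissue isoforms had a median of -0.08, with 5 lower. Over probe sets, 135 of 148 were lower in Mex3a High, and 37 of the 41 genes with several probe sets had 1 sign in all of them.

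**Figure D3:**
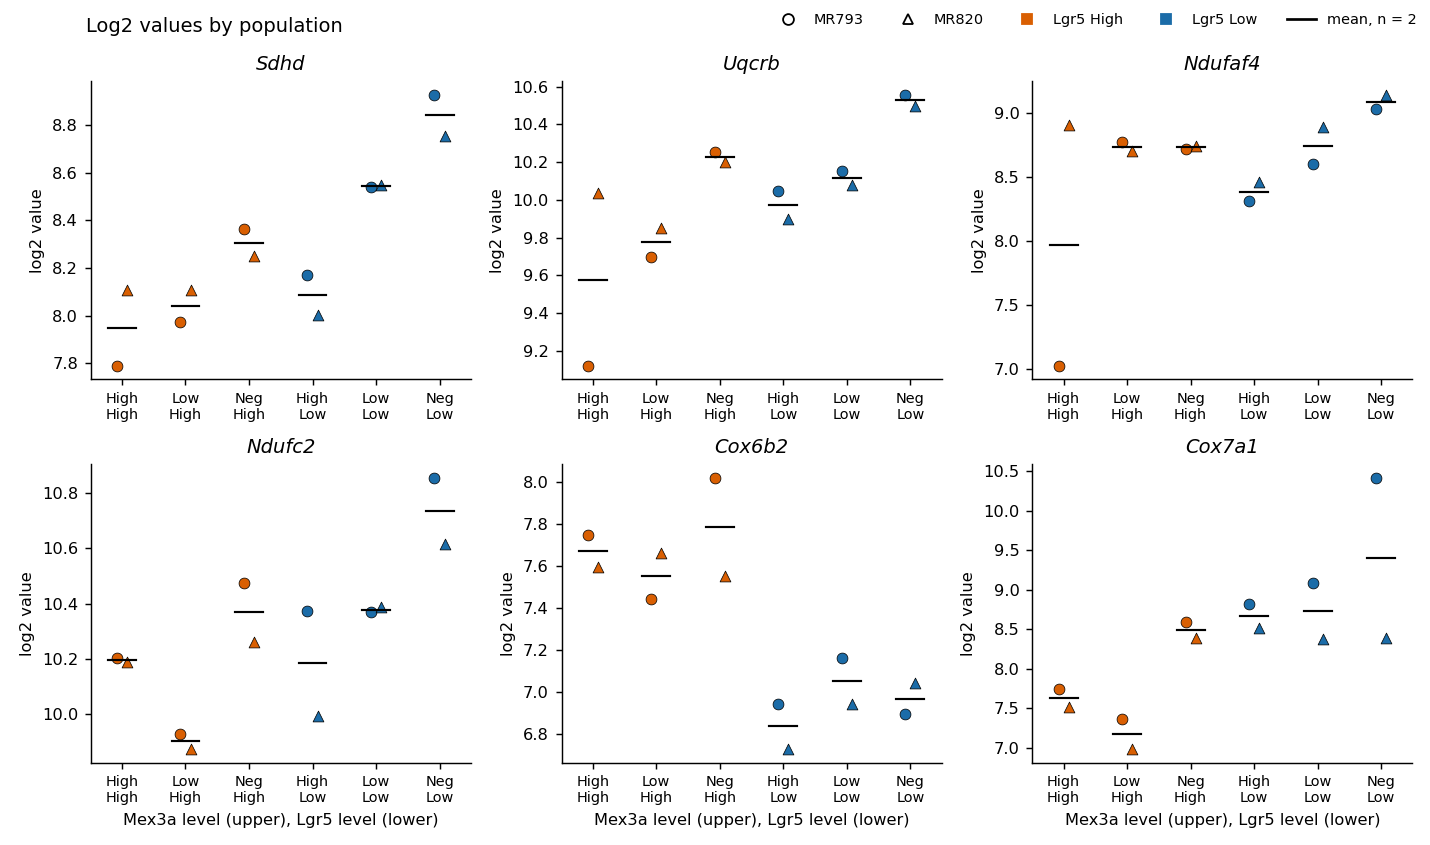
Log2 value of Sdhd, Uqcrb, Ndufaf4, Ndufc2, Cox6b2 and Cox7a1 on each of the 12 arrays, by population, with circles for MR793, triangles for MR820 and a bar at the mean (n = 2). Sdhd, Uqcrb and Ndufaf4 lie lower in Mex3a High than in Mex3a Neg within Lgr5 Low with no overlap, Cox6b2 lies higher in all Lgr5 High than in all Lgr5 Low arrays, and Cox7a1 reaches 10.41 on the MR793 array of Mex3a Neg Lgr5 Low.

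The promoters of the oxidative phosphorylation genes taken by the symbol rule, named above or not, were read for letters of factors known to act on respiratory genes. Of the 87 genes, 70 had a window in the RefSeq promoter table (GRCm38.p6), from 250 bases before to 50 after the start, and some had several, 75 in all. The consensus of the factor NRF1 stood in 7 of the 75 windows (9.33%), and in 1.27% of all 32851 windows of the same length. The core CCGGAAG of the ETS family, to which GABPA belongs, stood in 17 (22.7%), against 8.86% of all windows, and 23 windows (30.7%, against 9.9%) held either. The letters AAGATGG of the YY1 motif stood in 12 (16.0%, against 6.34%), and TATAAA in 9, or about as often as in all windows (13.6%). Both strands were searched and overlapping matches were counted, and a match is a description of letters, not a site or a cause. The 250 bases before the start of 3 genes are shown because they hold both matches, the NRF1 match alone and the ETS core alone: Sdhd and Ndufb4 are among the genes with the smallest p above, and Cox6b1 is a complex IV gene that fell in Lgr5 High cells without the array that stands apart. Capitals mark the NRF1 consensus and the ETS core, in either direction.

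Sdhd, chr9:50603850-50604099, minus strand: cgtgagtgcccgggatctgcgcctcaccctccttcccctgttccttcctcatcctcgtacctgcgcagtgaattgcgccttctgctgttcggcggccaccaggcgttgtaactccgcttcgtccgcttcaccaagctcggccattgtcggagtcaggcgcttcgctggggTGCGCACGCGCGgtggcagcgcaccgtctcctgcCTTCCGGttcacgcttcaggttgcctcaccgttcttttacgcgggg
Ndufb4, chr16:37654369-37654618, minus strand: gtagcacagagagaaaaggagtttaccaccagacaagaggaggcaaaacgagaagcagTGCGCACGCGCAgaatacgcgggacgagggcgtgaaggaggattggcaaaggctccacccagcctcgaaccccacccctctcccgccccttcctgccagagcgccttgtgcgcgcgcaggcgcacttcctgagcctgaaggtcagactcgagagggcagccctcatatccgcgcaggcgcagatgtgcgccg
Cox6b1, chr7:30626115-30626364, minus strand: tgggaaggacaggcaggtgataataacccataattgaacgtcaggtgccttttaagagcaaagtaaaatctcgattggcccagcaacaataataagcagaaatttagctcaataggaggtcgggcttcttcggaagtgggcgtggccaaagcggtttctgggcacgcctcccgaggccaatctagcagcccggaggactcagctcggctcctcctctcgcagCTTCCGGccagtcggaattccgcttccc

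The Sdhd window held the NRF1 consensus from position -80 before the start and the reversed ETS core from -46. The Ndufb4 window held the NRF1 consensus from -192 and no ETS core. The Cox6b1 window held the reversed ETS core from -28 and no NRF1 consensus, which says only that those letters are not in that window.

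Markers of other cell types differed widely between the same populations. Between Mex3a High and Mex3a Neg Lgr5 Low cells, all 10 tuft cell markers measured were called higher (median 5.25), with mean levels of 10.30 and 10.28 in Mex3a High and 5.37 and 5.41 in Mex3a Neg. Of 14 enteroendocrine markers 13 were called higher (median 3.90, mean levels 10.02 and 9.83 against 6.24 and 5.96), and of 6 Paneth cell markers 4 (median 2.18, mean levels 10.47 and 10.35 against 7.91 and 8.65). The Paneth cell marker Defa3 was lower, at 5.86 and 5.99 against 6.56 and 6.81. The share of all genes called higher in this comparison is not given here. The 11 mitosis genes were all lower, with a median of -0.62 (mean levels 8.78 and 8.79 against 9.35 and 9.47). With 12 arrays 0 of them were called lower (0.0117% of all genes). Enterocyte markers differed between replicates, at -0.73 in MR793 and 1.61 in MR820, while the members' medians were -0.22 and -0.21. An array value has no true 0, so none of these markers can be said to be absent, and the part of these cell types in the differences of the oxidative phosphorylation genes was not tested.

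By the median of the 87 genes, Mex3a Low cells lay between the other gates within Lgr5 Low. Not every gene did so: Ndufa6 averaged 9.46 in Mex3a Low, 9.58 in Mex3a High and 9.90 in Mex3a Neg. Against Mex3a Neg, the 87 genes had a median difference of -0.12 (-0.18 in MR793, -0.05 in MR820), with 78 lower, against a median of -0.01 over all genes. limma called 0 of the 87 (0.0468% of all genes in either direction) and 2 were lower at an unadjusted p under 0.05 (0.164% of all genes). The arrays did not overlap for 48 genes lower and 3 higher in Mex3a Low, with 15.7% and 14.6% of all genes. Complex I had 30 of 32 subunits lower (median -0.13) and complex V 16 of 17 (-0.12), and the medians of complexes II, III and IV were -0.17, -0.15 and -0.09. Ndufb4 read 10.04 and 9.96 in Mex3a Low, against 10.53 and 10.34 in Mex3a Neg (-0.44 ± 0.17), and Ndufa6, an accessory subunit, differed by -0.44 ± 0.18 (-0.60 in MR793, -0.28 in MR820). Ndufc2 differed by -0.36 ± 0.18, Ndufa4 by -0.25 ± 0.13, Uqcr10 by -0.29 ± 0.15 and Atp5o, the subunit that joins the stalk to the head, by -0.27 ± 0.16, all at a limma adjusted p of 1.0. Tuft cell markers had a median of 2.62 here (4 of 10 called higher, mean levels 8.32 and 7.19 in Mex3a Low and 5.37 and 5.41 in Mex3a Neg), and their part was not tested.

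Within the Lgr5 High gate, Mex3a High cells gave differences that depended on the array that stands apart. With it, the median of the 87 genes was -0.18 (-0.37 in MR793, -0.06 in MR820), with 69 lower in Mex3a High, against a median of 0.07 over all genes. Without it the median was -0.09, from the MR820 array against both Mex3a Neg arrays, with 78 lower. limma called 0 of the 87 with 12 arrays (0% of all genes in either direction) and 0 without the array (0.0175% of all genes), and 12 and 1 genes were lower at an unadjusted p under 0.05 in those fits (1.51% and 1.84% of all genes). With 12 arrays the populations did not overlap for 42 genes lower and 1 higher, with 9.07% and 13.2% of all genes. Each replicate's pair lay on a single strip.

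The smallest p of this comparison belonged to Sdha, which read 10.88 and 11.75 in Mex3a High Lgr5 High cells, against 12.02 and 11.97 in Mex3a Neg Lgr5 High cells. The difference of -0.68 ± 0.23 came mostly from MR793 (-1.14, against -0.22 in MR820), was -0.24 ± 0.09 without that array, and did not pass the test (limma adjusted p = 0.505). The same adjusted p went with Atp5g3 (-0.59 ± 0.23; -1.04 in MR793 and -0.14 in MR820), Sdhb (-0.46 ± 0.18; -0.77 and -0.15), Uqcrb (-0.65 ± 0.26; -1.13 and -0.17), Cox7a2 (-0.47 ± 0.19; -0.84 and -0.11) and the accessory subunit Ndufb8 (-0.53 ± 0.21; -0.98 and -0.07). In each of these genes the MR793 difference was several times that of MR820. By complex the medians were -0.18 in complex I, -0.51 in complex II, -0.20 in complex III, -0.23 in complex IV and -0.16 in complex V. Without that array they were -0.10, -0.21, -0.09, -0.08 and -0.06 in the same order. The assembly factors had a median of -0.44 with the array and 0.00 without it, and the tissue isoforms 0.29 with it and -0.10 without it. The mitosis genes were all 11 lower here too by population means (median -0.54, 0 called), but mostly through MR793 (median -1.003, against -0.12 in MR820). In the MR820 pair Top2a and Aurkb were slightly higher in Mex3a High (Aurkb 10.17 against 10.14). Without the array the median was -0.33, from the MR820 array against both Mex3a Neg arrays. The mean levels of the mitosis genes on those Mex3a Neg arrays themselves differed (9.61 in MR793 and 9.22 in MR820). Tuft cell markers had a median of 1.57 with 0 of 10 called (mean levels 7.04 and 6.87 in Mex3a High and 5.33 and 5.15 in Mex3a Neg), and the part of these markers was not tested.

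Mex3a Low and Mex3a Neg cells within Lgr5 High did not include that array. The median of the 87 genes was -0.08 (-0.13 in MR793, -0.04 in MR820), with 66 lower in Mex3a Low, against a median of 0.01 over all genes, and it was -0.03 with the strip as a block, since the MR820 pair lay on strips 1 and 2. limma called 0 of the 87 (0% of all genes in either direction), and 3 were lower at an unadjusted p under 0.05 (0.287% of all genes). The arrays did not overlap for 48 genes lower and 6 higher, with 15.1% and 18.6% of all genes. All 10 complex IV subunits were lower (median -0.08) and 14 of 17 in complex V (-0.13). Ndufc2 read 9.93 and 9.87 in Mex3a Low, against 10.48 and 10.26 in Mex3a Neg (-0.47 ± 0.18), and Uqcrb 9.70 and 9.85, against 10.25 and 10.20 (-0.45 ± 0.26). Cox7a1 differed by -1.31 ± 0.54, Atp5mpl by -0.34 ± 0.14, Atp5j2 by -0.19 ± 0.10 and Cox8a by -0.21 ± 0.13, all at a limma adjusted p of 1.0. Enterocyte markers had the widest gap of the marker lists here (median -2.19, 8 of 8 lower and 0 called, mean levels 8.19 and 8.44 in Mex3a Low and 10.48 and 10.29 in Mex3a Neg), and their part was not tested.

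Whether the Mex3a High minus Mex3a Neg difference depended on the Lgr5 gate was tested as an interaction. limma called 0 of the 87 genes (0.398% of all genes in either direction), and 0 were past an unadjusted p under 0.05 (3.03% of all genes were, in the lower direction). The median was -0.01, but -0.16 in MR793 and 0.15 in MR820. It was 0.12 when the array that stands apart was left out, with 72 genes positive, 7 of them at an unadjusted p under 0.05 (3.26% of all genes higher at that threshold), and 0 called (0.936% of all genes). With the replicate block as well, Ndufaf4 was called at 0.83 (0.146% of all genes called higher), but with all 12 arrays its difference was -0.06 ± 0.66 (SE; limma adjusted p = 0.976), of the opposite sign. The call rests on a single Mex3a High Lgr5 High array, that of MR820 (8.91, against 8.72 and 8.75 in Mex3a Neg Lgr5 High), which is assumed to vary like the other populations, and the array left out read 7.02. The smallest p with 12 arrays were those of Atp5o (0.40 ± 0.23), Atp5k (0.48 ± 0.29), Atp5d (0.35 ± 0.22), Atp5g3 (-0.50 ± 0.32), Ndufc2 (0.38 ± 0.25) and Ndufaf3 (-0.51 ± 0.34), all at a limma adjusted p of 0.865. For all 6 the test was missed, and its SE was 0.22 or more.

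Between the Lgr5 gates, averaged over the Mex3a gates, the oxidative phosphorylation genes were mostly lower in Lgr5 High. The median of the 87 was -0.16 (-0.25 in MR793, -0.11 in MR820), with 76 lower, against a median of 0.04 over all genes. It was -0.12 without the array that stands apart. limma called 0 genes lower (1.13% of all genes) and 1 higher, Cox6b2 (0.252% of all genes), and 24 were lower at an unadjusted p under 0.05 (7.05% of all genes). With 6 arrays a side, the arrays did not overlap for 2 genes lower, Uqcrc1 (-0.25) and Cox6a1 (-0.16), and for Cox6b2 higher, with 1.74% and 1.30% of all genes. Without the array that stands apart 5 genes fell (3.30% of all genes called lower) and Cox6b2 rose (1.81% called higher). The 5 were Ndufs5-ps (-0.34, adjusted p = 0.0316), Sdhd (-0.34, adjusted p = 0.0376), Cox6a1 (-0.15, adjusted p = 0.0396), Uqcrc1 (-0.20, adjusted p = 0.0407) and Cox6b1, the subunit at the face of complex IV that meets cytochrome c (-0.16, adjusted p = 0.0425). With the replicate block as well, 22 fell (6.69% called lower) and Cox6b2 rose (4.73% called higher). By complex the medians with 12 arrays were -0.21 (I, 30 of 32 subunits lower), -0.33 (II), -0.16 (III), -0.16 (IV) and -0.15 (V, 16 of 17 lower). Without the array that stands apart they were -0.13, -0.23, -0.19, -0.13 and -0.12 in the same order.

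Strip and Lgr5 gate went together for most of these arrays. Only the Mex3a High pair of MR820 lay within a single strip, and there the median Lgr5 High minus Lgr5 Low difference of the 87 genes was 0.00, with 42 lower. That pair is also the only Mex3a High pair without the array that stands apart, so strip and Mex3a gate cannot be told apart in it. The pairs on different strips gave -0.35 (Mex3a High, MR793), -0.14 and -0.16 (Mex3a Low) and -0.18 and -0.15 (Mex3a Neg). With the strip as a block the median was -0.07, with 62 lower, and limma called 0 of the 87 (0% of all genes called lower), with 1 gene each way at an unadjusted p under 0.05 (2.67% of all genes in either direction). The strip and the Lgr5 gate cannot be told apart within MR793.

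**Figure D4:**
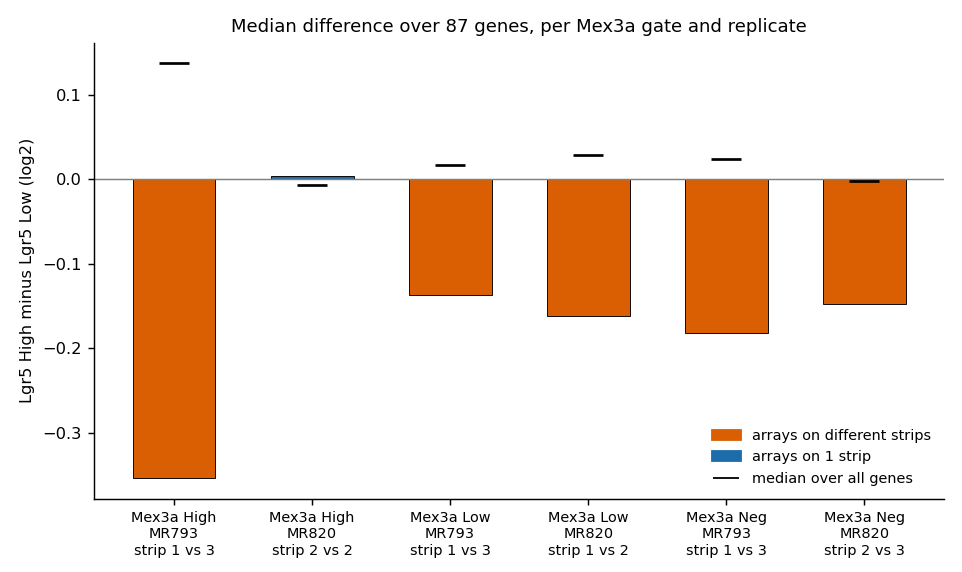
Median over the 87 genes of the Lgr5 High minus Lgr5 Low log2 difference (bars, from 0) in each Mex3a gate and replicate, orange where the arrays lay on different strips and blue where they lay on 1 strip, with a dash for the median of all genes. The single pair on 1 strip, Mex3a High in MR820, lies at 0.00, and the others at -0.14 to -0.35. It is also the only Mex3a High pair without the array that stands apart.

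The gene called between the Lgr5 gates with 12 arrays is an isoform of a complex IV subunit. Cox6b2, known from testis, read 7.75 and 7.59, 7.44 and 7.66, and 8.02 and 7.55 in the Mex3a High, Low and Neg populations of Lgr5 High. In those of Lgr5 Low it read 6.94 and 6.73, 7.16 and 6.94, and 6.89 and 7.04. Every Lgr5 High array lay above every Lgr5 Low array. The difference was 0.72 ± 0.13 (0.74 in MR793, 0.70 in MR820; limma adjusted p = 0.0265), a 1.64-fold rise, and within strip 2 it was 0.87. With a strip block it was 0.66 ± 0.22 (adjusted p = 1.0), and the call was also lost when any of 8 single arrays was left out, both of Mex3a Low Lgr5 High, Mex3a High Lgr5 Low and Mex3a Low Lgr5 Low and those of MR793 of both Mex3a Neg populations (0.64 to 0.75 in these fits). Its adjusted p ran from 0.000775 to 1.0 over all alternatives. Its ubiquitous counterpart Cox6b1 lay at 11.81 to 12.08 in Lgr5 High and up to 12.29 in Lgr5 Low, and the gates overlapped.

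Cox7a1, known from heart and skeletal muscle, read 7.74 and 7.52 in Mex3a High Lgr5 High, 7.37 and 6.99 in Mex3a Low Lgr5 High and 8.60 and 8.39 in Mex3a Neg Lgr5 High. It read 8.82 and 8.51 in Mex3a High Lgr5 Low, 9.09 and 8.37 in Mex3a Low Lgr5 Low and 10.41 and 8.39 in Mex3a Neg Lgr5 Low. The last pair, of 1 population, differed by more than most populations did, and the Lgr5 gates overlapped. The Lgr5 difference was -1.17 ± 0.31 (-1.54 in MR793, -0.80 in MR820; limma adjusted p = 0.137), and 0.0498 with the replicate block (1.56% of all genes called lower). The mean level of the 8 enterocyte markers in the same 6 populations was 9.58 and 9.31, 8.19 and 8.44, and 10.48 and 10.29 in Lgr5 High, and 10.75 and 10.76, 10.59 and 10.03, and 11.43 and 9.47 in Lgr5 Low. Both series were lowest in Mex3a Low Lgr5 High and highest on the MR793 array of Mex3a Neg Lgr5 Low, and the part of enterocytes in the Cox7a1 values was not tested.

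The remaining isoforms are given beside their common counterparts, each on the scale of its own probe set. Cox4i1 read 11.52 on the array that stands apart and 11.99 to 12.19 on the rest, while the lung isoform Cox4i2 read 6.94 and 6.25 to 6.62. Cox6a1 lay between 12.18 and 12.53, the muscle isoform Cox6a2 at 7.44 on that array and 6.61 to 6.94 on the rest. Cox8a lay between 11.29 and 11.77, the muscle isoform Cox8b at 7.27 on that array and 6.21 to 6.69 on the rest, and the testis isoform Cox8c at 7.68 and 6.43 to 6.75. Ndufa4 lay between 11.32 and 11.91, and Ndufa4l2, known to be induced by low oxygen, at 7.12 and 6.12 to 6.40. For each of the tissue forms Cox4i2, Cox6a2, Cox8b, Cox8c and Ndufa4l2 the array that stands apart was the highest of the 12, and the other 11 lay close together. Cox7a2 read 11.64 on that array and 12.34 to 12.59 on the rest, and Cox7a2l, which helps join complexes III and IV, 11.95 and 12.04 to 12.29. Of the c subunit genes, which encode the same mature protein, Atp5g2 read 11.38 on that array and 10.68 to 10.97 on the rest, Atp5g3 11.17 and 12.03 to 12.47, and Atp5g1 10.82 to 11.52 over all 12 arrays.

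Other genes of mitochondrial energy metabolism, from lists written from general knowledge, were set beside these. Between Mex3a High and Mex3a Neg Lgr5 Low cells, 14 of 14 genes of the citric acid cycle and pyruvate dehydrogenase were lower (median -0.26). Among them were Idh3a (-0.38), Idh3g (-0.29) and Fh1 (-0.26). With 12 arrays 0 of the 14 were called lower (0.0117% of all genes). Of 30 other assembly factors 28 were lower (median -0.16; Sdhaf3 -0.73, Cox10 -0.62, Ecsit -0.41), and 0 were called with 12 arrays. The count of all genes lower in this comparison is given with the members above. Of 16 regulators of mitochondrial biogenesis 14 were lower (median -0.22), with Polrmt, the mitochondrial RNA polymerase, at -0.86 and the coactivators Ppargc1b and Pprc1 at -0.67 and -0.59. All 7 genes of coenzyme Q synthesis (median -0.31), Cyc1 (-0.25) and Cycs, cytochrome c (-0.27), were lower as well.

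Glycolysis genes had no common direction in that comparison. Of 13 measured, 6 were lower in Mex3a High than in Mex3a Neg Lgr5 Low cells (median 0.03), and Hk1, a hexokinase, rose (3.17 ± 0.35; 3.32 in MR793 and 3.02 in MR820, limma adjusted p = 0.00102). In the Lgr5 comparison 12 of 13 were lower in Lgr5 High (median -0.33, or -0.11 without the array that stands apart). Averaged over the Mex3a gates, Hk1 (-1.60) and the phosphofructokinase Pfkp (-1.14) fell. The Hk1 gap was uneven. It read 5.85 and 5.70 in Lgr5 High against 9.20 and 8.64 in Lgr5 Low among Mex3a High cells. In Mex3a Low it read 5.48 and 5.39 against 7.16 and 5.94, and in Mex3a Neg 5.14 and 5.26 against 5.88 and 5.62. Of the citric acid cycle genes 13 of 14 were lower in the Lgr5 comparison (median -0.22, or -0.10 without the array that stands apart). Of the biogenesis regulators Myc rose (0.54, limma adjusted p = 0.043). In that comparison 6 of 9 crypt base stem cell markers were called higher (median 0.95), and 9 of 10 tuft cell (-1.88) and 9 of 14 enteroendocrine markers (-1.74) lower. The part of these cell types in the differences between the Lgr5 gates was not tested. Strip and Lgr5 gate went together for most arrays, so the strip limit given above holds for these Lgr5 calls too. With the strip as a block, 0% of all genes were called lower in Lgr5 High.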

How the data were processed

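RNA of 12 samples of mouse small intestine was measured on Affymetrix arrays. Per the submitters' processing notes the authors used RMA, and the deposited table holds log2 values for probe sets. The RMA version is not given in the sources, and the values were used unchanged. The table holds 45141 probe sets, 28898 of them with 1 gene in the probe table used here, 551 with several and 15692 not listed, and 0 columns were left over. The deposited names of 87 members all matched a mouse gene table by gene identifier.

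Each of the 17097 genes was fitted with limma 3.58.1 in R 4.3.3 as 6 population means over all 12 arrays, with moderated variances (eBayes, trend on; 6 residual and 3.44 prior degrees of freedom). p-values were adjusted by Benjamini-Hochberg over all genes. The fit was tested on simulated data with less noise than observed, large planted changes and no array that stands apart. That test does not show how often the fit finds differences as small as those of the members. Medians over members carry no test, since members are not replicates. RMA also gives a value to probe sets near background, which compresses differences of dim genes.

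The replicate names MR793 and MR820 pair the populations. Checked by the correlation of replicate differences between populations, 14 of 15 pairs lay over 0.1 (lowest -0.115, median 0.382), and 10 of 10 without the population of the array that stands apart (0.374 to 0.566). The p-values measure the spread between these samples.

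Members, lists and tests were chosen with earlier results of these data known. The genes named are, in each comparison, the called ones or the 6 with the smallest p; in each complex those with the 3 highest means and the widest and narrowest ranges; the Sdh genes; the isoform pairs; and up to 3 per list. Others are said to be chosen after their values were seen. Alternatives were blocks for replicate and strip, quantile normalisation again, arrays centred, dim probe sets left out, the mean of probe sets, no trend and each array left out. Promoter windows are RefSeq's, searched with Python 3.11.15. The NRF1 and YY1 patterns were set after other forms of both had been searched in the same windows.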

Additional observations from a re-analysis of the deposited data

How the results depend on the processing

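Cox6b2, called with 12 arrays, kept its direction under every alternative. Of the calls that only an alternative made, that of Ndufaf4 in the interaction (0.83) has the opposite sign with 12 arrays (-0.06), and the others have the same sign. The median of the interaction, near 0, took either sign (-0.08 to 0.12 over single arrays left out), while the medians of the other 5 comparisons stayed below 0. The replicate block moved the Lgr5 count of called genes to 2, and left the median differences and the other counts of called genes as they were. With 12 arrays, 0 of the 87 genes were called between Mex3a High and Mex3a Neg within Lgr5 High, 0 within Lgr5 Low, 1 between the Lgr5 gates and 0 in the interaction. Leaving out 1 array at a time gave 0 to 58, 0 to 6, 0 to 60 and 0 to 38 called genes in these comparisons. The upper ends of the first, the third and the fourth come from leaving out the MR820 array of Mex3a High Lgr5 High, so that the array that stands apart is alone in its population: then 62.3%, 54.5% and 48.6% of all genes were called. The 6 come from leaving out its MR793 array. Without a trend 1 gene was called between Mex3a High and Mex3a Neg within Lgr5 Low. The strip as a block, alone or with the replicate block, gave 0 calls between the Lgr5 gates. Without the array that stands apart and with the replicate block, chosen after seeing the data, 35 genes were called within Lgr5 Low, 23 between the Lgr5 gates and 1 in the interaction. The median within Lgr5 Low was -0.19 with the strip as a block, -0.19 after quantile normalisation again, -0.25 with arrays centred, and -0.26 to -0.16 over single arrays left out. Of the genes named as called or with the smallest p with 12 arrays, 19 values newly passed the threshold and 10 lost it, all 10 those of Cox6b2. Genes named for other reasons are not in these counts. The median residual SD over all genes was 0.22 with 12 arrays and 0.116 without the array that stands apart, close to the size of the members' medians.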
